A study of Mus musculus with 9 samples.

Results

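The cadherin superfamily was described in progenitor cells sorted from the TVZ, the third ventricular zone, which borders the third ventricle of the mouse brain. Members were taken by gene symbol: the numbered cadherins (Cdh) and protocadherins (Pcdh), the alpha, beta and gamma protocadherin clusters, and the Celsr, Fat and Dachsous (Dchs) families. The rule took 74 of the 18329 genes in the deposited table, 40 of them clustered protocadherins and 34 outside the clusters. The rule itself uses symbols only, but the members were chosen with earlier results of these data known. All 74 passed the filter of at least 1 CPM (reads scaled to a common library total) in at least 3 of the 9 libraries, as did 16143 genes in all. Cdh1, Cdh3 and Cdh5, the epithelial, placental and endothelial cadherins, were not analysed here.

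Cadherins are calcium-dependent adhesion molecules that bind the same or related molecules on the neighbouring cell. Classical cadherins are tied to the actin cytoskeleton by catenins and hold neuroepithelial and ependymal cells together at their apical junctions. Clustered protocadherins are chosen in combinations by single neurons, which lets a cell tell its own processes from those of others; alpha and gamma transcripts each join 1 variable exon to constant exons shared by their cluster. Celsr, Fat and Dachsous proteins are giant cadherins of planar cell polarity and growth control, which in the ependyma take part in orienting motile cilia.

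RNA was sequenced from 3 sorted populations with 3 libraries each: CD133+Nestin+, Nestin+ and CD133+. All came from untreated Nestin-CFPnuc mice, in which the Nestin promoter drives cyan fluorescent protein, kept on a C57/BL6 background and taken on postnatal day 1. The sort used that fluorescence and CD133, a surface protein whose gene is Prom1. Whether a single-marker sort also required the absence of the other marker is not stated in the labels. They also do not say whether libraries came from separate animals, so the p-values reflect spread among libraries that may be technical. Each library carries a sort number from 1 to 3, used here as its replicate number, and values in a group are given in that order. The labels give the same number as the passage, so sort and passage cannot be told apart in any paired or blocked value. In bulk samples, fewer cells of a type and less RNA per cell cannot be told apart.

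A single read was worth 0.0285 to 0.0344 CPM, so the totals used for scaling were about 29100000 to 35000000 reads, and 3 reads corresponded to 0.0856 to 0.103 CPM, a limit that covers counting error only. Prom1 averaged 147 ± 32.7 CPM in CD133+Nestin+, 51.0 ± 10.3 CPM in Nestin+ and 169 ± 20.04 CPM in CD133+ libraries, and Nes averaged 198 ± 22.6, 173 ± 20.03 and 51.2 ± 10.1 CPM in the same order (SD, n = 3 each); both marked the sort and are no finding. CD133+Nestin+ replicate 2 stood apart: it held the lowest of the 9 values for 33.2% of all genes tested, and for 25 of the 74 members. Markers of other cell types moved with the groups. Summed levels of 5 endothelial, 7 mural and fibroblast and 9 microglial markers lay at 27.0 to 44.6, 99.5 to 205 and 37.9 to 274 CPM in CD133+Nestin+ libraries. The same sums were 15.4 to 25.5, 70.2 to 99.6 and 32.8 to 94.1 CPM in Nestin+ libraries, against 451 to 887, 959 to 1871 and 917 to 2475 CPM in CD133+ libraries. Cldn5 and Esam, which define endothelium, and Tmem119, which defines microglia, were under 3 reads in some libraries. The part of these cells in the results below was not tested.

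Promoter sequence is shown for Cdh26 and Pcdh15, the members with the largest fall and the largest rise in Nestin+ relative to CD133+ cells among those that passed the test described below. Each is 250 bases before to 50 after the gene start given by RefSeq on GRCm38.p6, read 5′ to 3′ on the gene's own strand: chr2:178430265-178430564 on the plus strand for Cdh26 and chr10:73821617-73821916 on the plus strand for Pcdh15. Capitals mark motif matches. The letters searched on both strands were GTAAACA (FOX core), GTTGCC (part of the X-box), ACAAAG (SOX core) and CAGCTG (E-box), none of which overlaps another here.
Cdh26: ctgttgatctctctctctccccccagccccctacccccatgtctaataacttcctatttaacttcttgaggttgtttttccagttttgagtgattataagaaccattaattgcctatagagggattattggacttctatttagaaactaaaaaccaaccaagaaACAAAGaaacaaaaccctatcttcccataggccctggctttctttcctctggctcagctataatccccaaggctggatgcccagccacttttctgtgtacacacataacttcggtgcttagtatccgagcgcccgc
Pcdh15: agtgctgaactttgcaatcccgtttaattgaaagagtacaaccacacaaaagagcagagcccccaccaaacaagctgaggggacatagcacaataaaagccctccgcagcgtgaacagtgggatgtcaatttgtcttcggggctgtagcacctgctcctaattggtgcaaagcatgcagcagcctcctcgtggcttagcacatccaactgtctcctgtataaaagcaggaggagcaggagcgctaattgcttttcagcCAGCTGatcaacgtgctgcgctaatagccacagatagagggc
The Cdh26 window held 1 SOX core, and the Pcdh15 window held 1 E-box. Of 32851 promoter windows of that length, 18.7% held the SOX core, 16.3% the E-box, 12.5% the X-box part and 3.65% the FOX core. GC content was 44% for Cdh26 and 50.7% for Pcdh15, against a median of 52.7% over all windows. A match is a description of letters in a window and not a binding site. The RefSeq start used for Pcdh15 lies inside the longer gene body annotated by GENCODE, so other starts of this gene were not covered.

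Across all libraries, gamma cluster transcripts and a few classical cadherins and protocadherins gave the highest levels per length. On the scale of CPM per kilobase of annotated exon, the mean over the 9 libraries was 45.7 for Pcdhgc4 and 44.7 for Pcdhgc3, both C-type gamma protocadherins. Pcdh9 followed at 19.3, Cdh13 (T-cadherin, held in the membrane by a lipid anchor) at 16.8, Cdh2 (N-cadherin, the main classical cadherin of neural tissue) at 16.2 and Cdh4 (R-cadherin) at 14.8. Cdh11, known from mesenchymal cells, stood at 9.98 on the same scale, and the lowest member was Cdh23 at 0.0503. The order differed between groups: Pcdhgc4 was first in CD133+Nestin+ (48.9 CPM per kilobase, against 42.0 for Pcdhgc3) and in CD133+ libraries (35.4 against 27.8), but Pcdhgc3 in Nestin+ libraries (64.5 against 52.8). These gaps between Pcdhgc4 and Pcdhgc3 were smaller than the SD over the 3 libraries of Pcdhgc3 in each group (18.8, 26.4 and 9.59). The next place was held by Cdh4 in CD133+Nestin+ and CD133+ libraries and by Pcdh9 in Nestin+ libraries, and last place by Celsr3 in CD133+Nestin+, Cdh23 in Nestin+ and Cdh12 in CD133+ libraries. Of the 74 members, 49 were at 1 CPM or more in all 9 libraries.

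**Figure D1:**
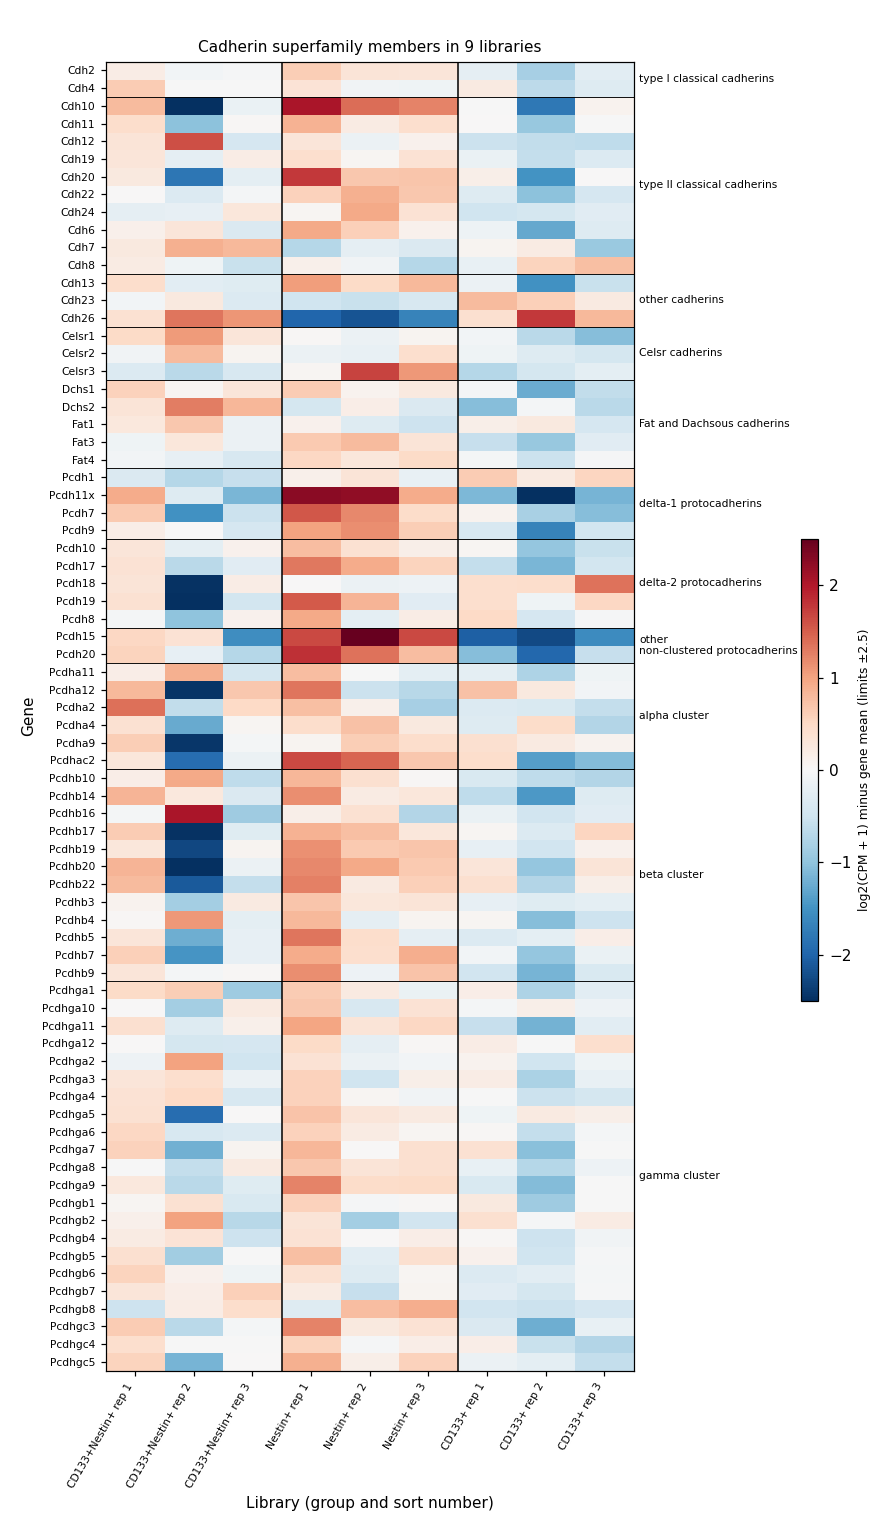
Heat map of log2(CPM + 1) of the 74 members, each row minus its own mean over the 9 libraries, with columns for CD133+Nestin+, Nestin+ and CD133+ replicates 1 to 3 and rows grouped by role. Most rows are red in the Nestin+ columns, where 44 of 74 members had their highest value in replicate 1 (12.5% of all genes tested did). Cdh26 is blue there, and CD133+Nestin+ replicate 2 carries many dark blue cells.

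Nestin+ cells differed from CD133+ cells in 13 of the 74 members: 11 rose and 2 fell. The rises were led by non-clustered protocadherins (Pcdh15, Pcdh11x, Pcdh20, Pcdh9, Pcdh17), and both falls were cadherins outside the classical families (Cdh26, Cdh23). These calls are from limma on log2(CPM + 1), with Benjamini-Hochberg adjustment over 16143 genes and a threshold of 0.05; the scale understates changes of genes with low values. Over all genes tested, 2.45% were called higher and 9.42% lower, so the share of members that rose (11 of 74) was above that background and the share that fell (2 of 74) below it. The median log2 change was 0.65 over the members and -0.02 over all genes tested, with 64 of 74 members above 0. In the authors' deposited table, 12 of the 74 members passed a step-up false discovery rate of 0.05, 10 higher and 2 lower, where 9.07% of all 18329 genes did. These 12 were among the 13, and Celsr3 stood at 0.0594 in the authors' deposited table.

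Libraries were also paired by replicate number, and with the number as a block 26 members rose and 2 fell, against 6.06% and 13.1% of all genes. A ± after a log2 change is limma's standard error, from the fit without the block unless the block's adjusted p is given first. Deviations from group means over all genes tested correlated between same-numbered libraries at 0.582 to 0.73 for number 1. The correlations were 0.322 to 0.369 for number 2 and 0.204 to 0.224 for number 3, and libraries of different numbers reached 0.314. Groups did not overlap, with all 3 Nestin+ values above all 3 CD133+ values, in 36 members (11.8% of all genes), and with all 3 below in 3 members (21.1% of all genes). Within the pairs of sort numbers 1, 2 and 3, the members' median log2 difference was 0.75, 0.86 and 0.50, and 65, 62 and 59 of the 74 were higher in the Nestin+ library. The same medians over all genes tested were -0.04, -0.03 and -0.03, and 46.9%, 48.4% and 47.9% of all genes tested were higher in the Nestin+ library. A total of 53 members were higher in Nestin+ in all 3 pairs and 5 were lower in all 3. The matching shares of all genes were not computed, so these counts stand without a background. Centring every library on its median moved the median change of all genes by 0.13, and quantile normalization moved it by 0.15, and with quantile normalization 20 members were called higher and 1 lower.

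**Figure D2:**
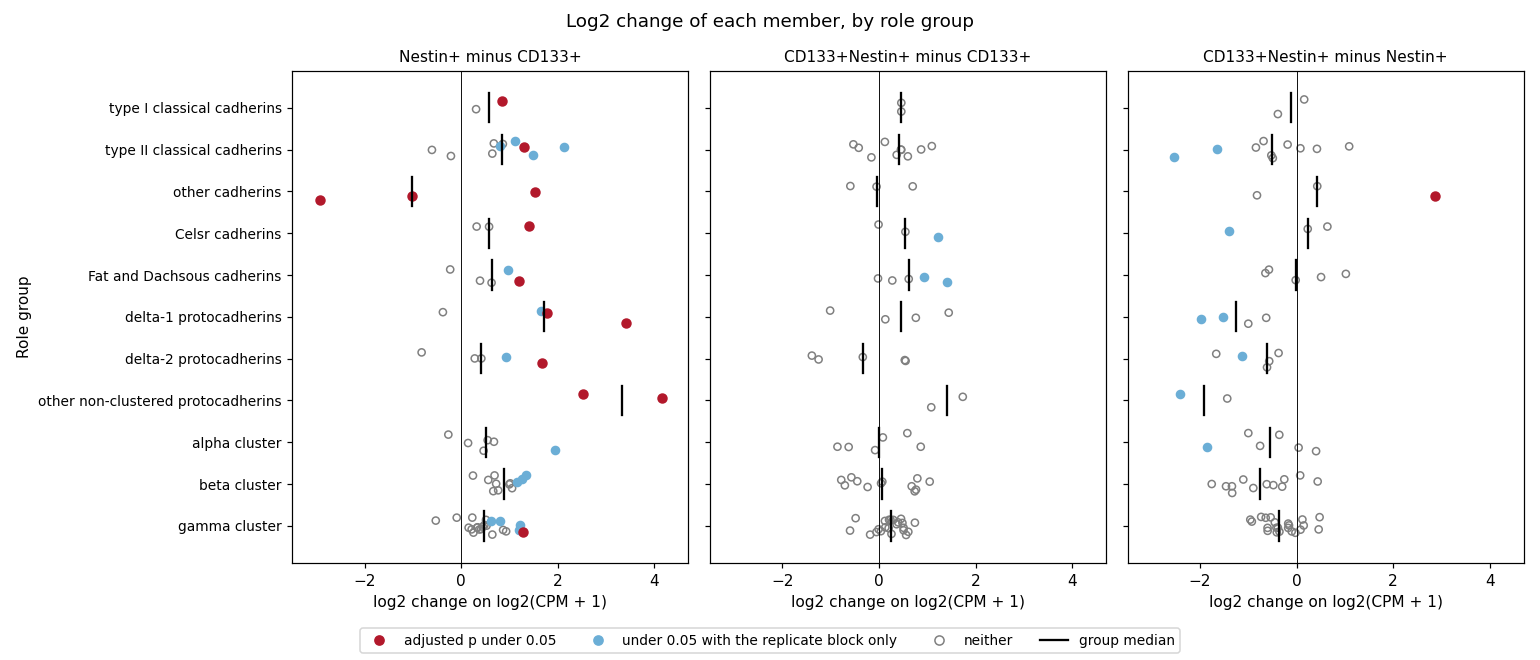
Log2 change on log2(CPM + 1) of every member in the 3 comparisons (x axis), with 1 row per role group (y axis); red points had an adjusted p under 0.05, blue points passed only with the replicate block, open points did neither, and bars are group medians. In Nestin+ minus CD133+, Pcdh15 lies farthest right at 4.15, followed by Pcdh11x at 3.42, and Cdh26 lies farthest left at -2.92, whereas no point is red in CD133+Nestin+ minus CD133+.

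Pcdh15 and Pcdh20 form no part of the delta families and both rose. Pcdh15, which with Cdh23 builds the tip link of inner ear hair cells in mice (chromosome 10, 73099342 to 74649737, GRCm38), stood at 10.2, 8.98 and 1.66 CPM in CD133+Nestin+, 23.6, 74.0 and 23.4 CPM in Nestin+ and 0.885, 0.625 and 1.62 CPM in CD133+ libraries. Its log2 change in Nestin+ relative to CD133+ was 4.15 ± 0.59 (limma, adjusted p = 0.00115), with no overlap between the 2 groups and differences of 3.71, 5.53 and 3.22 within the 3 pairs. Nestin+ replicate 2 held over 3 times the level of the other Nestin+ libraries. Pcdh20 (chromosome 14, 88464743 to 88471396) stood at 6.34, 3.31 and 2.01 CPM in CD133+Nestin+, 16.6, 11.7 and 7.49 CPM in Nestin+ and 1.37, 0.263 and 2.35 CPM in CD133+ libraries, a log2 change of 2.52 ± 0.47 with an adjusted p of 0.00517 from limma. Every Nestin+ value of Pcdh20 again exceeded every CD133+ value.

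Of the 4 delta-1 protocadherins, adhesion molecules with conserved cytoplasmic motifs, 2 rose. Pcdh11x, on the X chromosome (120290259 to 120910619), stood at 64.4, 26.3 and 14.5 CPM in CD133+Nestin+, 162, 158 and 64.5 CPM in Nestin+ and 14.7, 4.7 and 14.4 CPM in CD133+ libraries. Its log2 change was 3.42 ± 0.57 (limma, adjusted p = 0.00278). Pcdh9 (chromosome 14, 93013410 to 93890679) stood at 126, 114 and 84.5 CPM in CD133+Nestin+, 227, 253 and 173 CPM in Nestin+ and 85.3, 34.6 and 82.4 CPM in CD133+ libraries, a log2 change of 1.77 ± 0.35 with an adjusted p of 0.00744. Neither gene overlapped between Nestin+ and CD133+ libraries, and CD133+ replicate 2 was the lowest library for both. Pcdh7, at 39.8, 8.05 and 16.8 CPM in CD133+Nestin+, 74.5, 58.2 and 34.4 CPM in Nestin+ and 26.5, 13.7 and 11.4 CPM in CD133+ libraries, had a log2 change of 1.66 ± 0.52 and passed only with the block (adjusted p = 0.0653 without it and 0.00744 with it). Pcdh1, the remaining delta-1 member, had a log2 change of -0.38 ± 0.30 and overlapped between the groups.

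Among the 5 delta-2 protocadherins, which bind regulators of the actin cytoskeleton, only Pcdh17 was called in limma's fit without the block. Pcdh17 (chromosome 14, 84443563 to 84539002) stood at 57.2, 27.2 and 36.2 CPM in CD133+Nestin+, 112, 85.4 and 65.1 CPM in Nestin+ and 28.9, 19.4 and 32.0 CPM in CD133+ libraries. Its log2 change was 1.67 ± 0.33 (limma, adjusted p = 0.00684), and the lowest Nestin+ value was above 2 times the highest CD133+ value. Pcdh10, known for tumour suppression in human cancers, averaged 108 ± 24.7 CPM in Nestin+ and 58.1 ± 21.1 CPM in CD133+ libraries (SD, n = 3 each) and passed only with the block (adjusted p = 0.078 and 0.00999). Pcdh18, Pcdh19 and Pcdh8 passed neither test. Pcdh18 was the delta-2 member with groups in the opposite order, at 25.8, 22.8 and 23.3 CPM in Nestin+ and 34.3, 34.7 and 67.1 CPM in CD133+ libraries, a log2 change of -0.82 ± 0.62 with an adjusted p of 0.513. Pcdh19, whose mutations cause an epilepsy in humans, spread from 5.46 to 21.7 CPM within the Nestin+ group alone.

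The 3 cadherins outside the classical families went in both directions. Cdh26, a cadherin described in human gastrointestinal epithelium where it binds alpha integrins (chromosome 2, 178430531 to 178487366), fell: it stood at 10.6, 21.6 and 18.2 CPM in CD133+Nestin+, 1.27, 1.01 and 1.82 CPM in Nestin+ and 10.8, 29.3 and 14.6 CPM in CD133+ libraries. The log2 change was -2.92 ± 0.40 (limma, adjusted p = 0.000945), and no Nestin+ value reached 2 CPM. In CD133+Nestin+ relative to Nestin+ cells Cdh26 was the 1 member that rose, by a log2 of 2.87 ± 0.40 (limma, adjusted p = 0.00397), with groups apart in all 3 pairs at 2.36, 3.49 and 2.76. Against CD133+ cells the CD133+Nestin+ level overlapped, with a log2 change of -0.05 ± 0.40 (adjusted p = 0.972). The authors' deposited table gives Cdh26 a ratio of 0.0749 for Nestin+ over CD133+ and 12.3 for CD133+Nestin+ over Nestin+. Ependymal markers moved beside it: the sum of 8 such markers, among them Foxj1, Rsph1 and Dnah5, was 942 to 1122 CPM in CD133+Nestin+, 190 to 214 CPM in Nestin+ and 992 to 2123 CPM in CD133+ libraries. Of these 8, all fell in Nestin+ relative to CD133+ cells and 7 rose in CD133+Nestin+ relative to Nestin+ cells; their part in the Cdh26 result was not tested.

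Cdh23 (chromosome 10, 60302748 to 60696490), the tip-link partner of Pcdh15, also fell, from low levels throughout: it stood at 0.674, 1.09 and 0.379 CPM in CD133+Nestin+, 0.241, 0.196 and 0.339 CPM in Nestin+ and 2.06, 1.64 and 1.05 CPM in CD133+ libraries. Those levels were worth 6 to 11 reads per library in Nestin+ and 35 to 72 reads in CD133+ libraries. Its log2 change in Nestin+ relative to CD133+ was -1.02 ± 0.28 (limma, adjusted p = 0.0391), opposite in sign to that of Pcdh15. Cdh13 (chromosome 8, 118283733 to 119324921) rose and stood at 227, 139 and 135 CPM in CD133+Nestin+, 344, 233 and 295 CPM in Nestin+ and 150.1, 57.8 and 113 CPM in CD133+ libraries, a log2 change of 1.52 ± 0.36 with an adjusted p of 0.0196. Nestin+ and CD133+ values of Cdh13 did not overlap, and CD133+ replicate 2 was again the lowest of the 9 libraries.

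**Figure D3:**
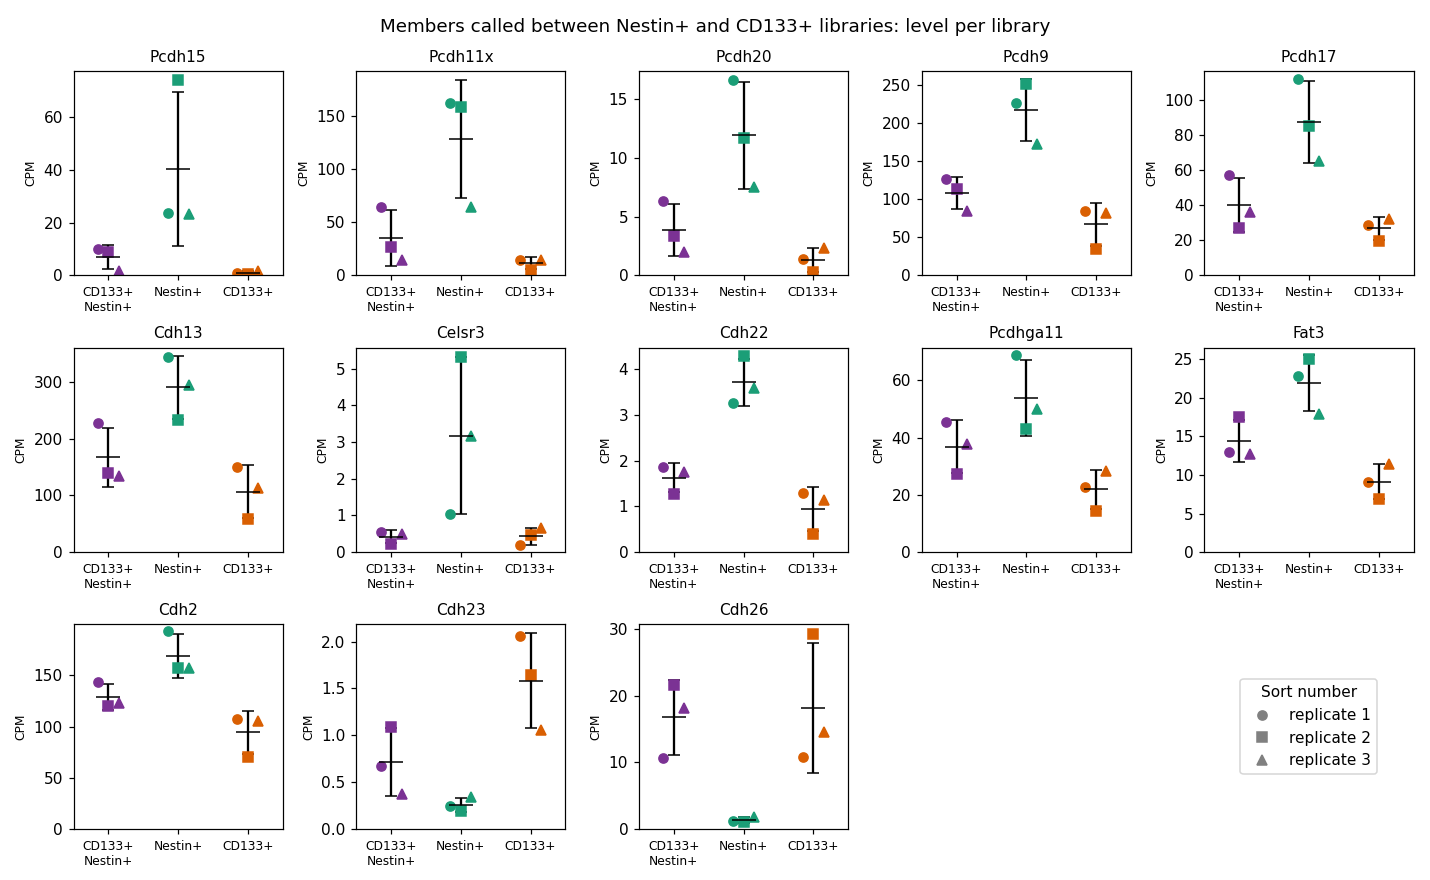
Level (CPM) in every library of the 13 members called between Nestin+ and CD133+, 1 panel per gene with its own scale from 0; points are libraries with the shape giving the sort number, and bars are means ± SD of 3 libraries. Nestin+ points lie above all CD133+ points in 11 panels and below them in the Cdh23 and Cdh26 panels, and for Cdh26 the CD133+Nestin+ points (10.6 to 21.6 CPM) sit with the CD133+ points.

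Among classical cadherins, 2 of 12 rose. Of the 2 type I members, Cdh2 rose, at 143, 119.9 and 123 CPM in CD133+Nestin+, 194, 157 and 157 CPM in Nestin+ and 108, 70.5 and 105 CPM in CD133+ libraries, a log2 change of 0.85 ± 0.25 (limma, adjusted p = 0.0469). Cdh4 stood at 162, 104 and 104 CPM in CD133+Nestin+, 133, 98.6 and 96.4 CPM in Nestin+ and 121, 65.7 and 82.9 CPM in CD133+ libraries, a log2 change of 0.31 ± 0.30 with an adjusted p of 0.639 and overlapped between the groups. Of the 10 type II members, Cdh22 rose, at 1.87, 1.26 and 1.75 CPM in CD133+Nestin+, 3.26, 4.27 and 3.58 CPM in Nestin+ and 1.28, 0.395 and 1.14 CPM in CD133+ libraries, a log2 change of 1.30 ± 0.31 with an adjusted p of 0.0171. With the block, Cdh6, Cdh10, Cdh11 and Cdh20 passed as well, at log2 changes of 1.12 ± 0.31, 2.12 ± 0.61, 0.81 ± 0.21 and 1.49 ± 0.34 and adjusted p-values of 0.0303, 0.0384, 0.0268 and 0.0128 (without the block 0.0645, 0.193, 0.266 and 0.15). Type II cadherins sort neurons and their axons into groups by adhesion. Cdh10 stood at 27.0, 0.365 and 13.4 CPM in CD133+Nestin+, 65.4, 41.7 and 37.4 CPM in Nestin+ and 15.2, 3.68 and 16.3 CPM in CD133+ libraries. Cdh20 stood at 10.04, 1.69 and 6.91 CPM in CD133+Nestin+, 30.7, 13.9 and 14.2 CPM in Nestin+ and 9.39, 2.33 and 8.39 CPM in CD133+ libraries, and Cdh11 at 112, 39.6 and 83.8 CPM in CD133+Nestin+, 152, 94.4 and 110.1 CPM in Nestin+ and 83.1, 42.4 and 82.0 CPM in CD133+ libraries. In these 3 genes replicate 2 was the lowest CD133+ and the lowest CD133+Nestin+ library, and no Nestin+ value overlapped the CD133+ group. Nestin+ values lay above all CD133+ values in 8 of the 10 type II members, against 11.8% of all genes tested. The exceptions were Cdh7 and Cdh8, with log2 changes of -0.21 ± 0.38 and -0.61 ± 0.37 that did not pass. Cdh12 was near the limit in CD133+ libraries, at 4 to 7 reads per library, and its change did not pass (adjusted p = 0.432).

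In the planar polarity families, Celsr3 and Fat3 rose. Celsr3, which guides axon tracts in the mouse forebrain (chromosome 9, 108826320 to 108852969), stood at 0.551, 0.232 and 0.496 CPM in CD133+Nestin+, 1.03, 5.31 and 3.18 CPM in Nestin+ and 0.200, 0.460 and 0.662 CPM in CD133+ libraries, a log2 change of 1.40 ± 0.39 (limma, adjusted p = 0.041). The lowest Nestin+ value of Celsr3 was 1.03 CPM and the highest CD133+ value 0.662 CPM. Fat3, which shapes neurites of the mouse retina (chromosome 9, 15910189 to 16501285), stood at 13, 17.5 and 12.7 CPM in CD133+Nestin+, 22.8, 25.0 and 17.9 CPM in Nestin+ and 9.13, 6.84 and 11.4 CPM in CD133+ libraries, a log2 change of 1.19 ± 0.29 with an adjusted p of 0.0197. Celsr1 and Celsr2, which take part in ependymal cilia alignment in mice, had log2 changes of 0.58 ± 0.31 and 0.32 ± 0.29 with groups that overlapped. Dchs1 and its receptor Fat4 had log2 changes of 0.96 ± 0.32 and 0.63 ± 0.26; Dchs1 passed with the block only (adjusted p = 0.0818 without it, 0.00969 with it). Dchs1 stood at 48.4, 33.0 and 39.5 CPM in CD133+Nestin+, 50.4, 34.2 and 38.2 CPM in Nestin+ and 30.8, 13 and 20.5 CPM in CD133+ libraries, with no Nestin+ value inside the CD133+ range. Fat1 and Dchs2 did not pass in either fit, at log2 changes of -0.23 ± 0.30 and 0.39 ± 0.38. Fat1 stood at 94.7, 126 and 71.4 CPM in CD133+Nestin+, 84.7, 63.3 and 54.7 CPM in Nestin+ and 87.2, 93.5 and 58.4 CPM in CD133+ libraries, and its 3 groups overlapped.

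Some calls were lost when 1 library was left out, which also leaves fewer libraries in its group. Pcdh15, Pcdh11x, Pcdh20, Pcdh9, Pcdh17 and Cdh26 passed in all 9 fits that each left out 1 library. Cdh13 and Pcdhga11 did not pass without Nestin+ replicate 1 (adjusted p = 0.0698 and 0.0842), Nestin+ replicate 3 (0.0670 and 0.0592) or CD133+ replicate 2 (0.0794 and 0.0971). Fat3 did not pass without Nestin+ replicate 1 (0.0668), Nestin+ replicate 2 (0.0945) or CD133+ replicate 2 (0.0900), and Cdh22 without Nestin+ replicate 2 (0.0766), Nestin+ replicate 3 (0.0551) or CD133+ replicate 2 (0.0919). Cdh23 lost its call without any single Nestin+ or CD133+ library (0.0555 to 0.134). Celsr3 lost it without CD133+Nestin+ replicate 3, Nestin+ replicate 2 or 3 or any CD133+ library (0.0605 to 0.164), and Cdh2 passed only when CD133+Nestin+ replicate 2 was the library left out (0.0307, against 0.0521 to 0.196). Without CD133+Nestin+ replicate 2, which enters only through the shared estimate of spread, 23 members and 729 of the 16143 genes rose, against 11 members and 395 genes with all libraries. The counts were 7 members and 285 genes without Nestin+ replicate 1, 6 and 212 without Nestin+ replicate 3, and 5 and 152 without CD133+ replicate 2.

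Oligodendrocyte precursor and neuronal markers moved in the direction of the protocadherins. The sum of 7 oligodendrocyte precursor markers, among them Pdgfra, Sox10 and Cspg4, was 124 to 515 CPM in CD133+Nestin+, 684 to 1274 CPM in Nestin+ and 70.0 to 151 CPM in CD133+ libraries, and 6 of the 7 rose in Nestin+ relative to CD133+ cells. Pdgfra averaged 399 CPM in Nestin+ and 25.3 CPM in CD133+ libraries, a log2 change of 3.90 ± 0.63 (limma, adjusted p = 0.00238). Pcdh15 is itself known as a transcript of oligodendrocyte precursors in the mouse brain. The sum of 7 neuronal lineage markers was 778 to 1087, 1029 to 1366 and 217 to 530 CPM in the same group order, and 3 of the 7 rose. The sum of 8 astrocyte and radial glia markers was 4094 to 10877, 8832 to 16524 and 2464 to 8211 CPM in that order. Of these 8, 7 had a log2 change above 0 in Nestin+ relative to CD133+ cells. Only 1 of them rose by the test, and with the block 5 rose and 1 fell. What part these cell types had in the member results was not tested.

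In the clustered protocadherins most log2 changes were above 0 in Nestin+ relative to CD133+ cells. Of 40 (2.45% and 9.42% of all genes were called higher and lower), only Pcdhga11 rose and 0 fell in limma's fit without the block. At an unadjusted p under 0.05 in that fit, 10 were higher and 0 lower, against 1172 and 2548 of the 16143 genes tested. A log2 change above 0 was found in 37, and the median over the 40 was 0.58, against 0.83 for the 34 non-clustered members. Pcdhga11 (chromosome 18, 37755731 to 37841873) stood at 45.6, 27.2 and 37.8 CPM in CD133+Nestin+, 68.7, 43.0 and 49.98 CPM in Nestin+ and 22.8, 14.6 and 28.3 CPM in CD133+ libraries, a log2 change of 1.28 ± 0.31 (limma, adjusted p = 0.021). Of its annotated exon length 44.6% lies in exons of other members and 73.6% in those of any gene, so part of these reads may have been counted for either. With the block, where 6.06% of all genes rose, 9 of the 40 did: Pcdhac2, Pcdhb7, Pcdhb9, Pcdhb14, Pcdhga8, Pcdhga9, Pcdhga11, Pcdhgc3 and Pcdhgc4. Nestin+ values exceeded all CD133+ values in 15 of 40, against 11.8% of all genes. In all 3 pairs 28 of 40 were higher in Nestin+, a count for which no share of all genes was computed. The medians over the 40 were 0.76, 0.79 and 0.38 within the pairs of sort numbers 1, 2 and 3. Pcdhac2, the C-type alpha protocadherin that serotonergic axons use to tile their targets in mice, stood at 4.06, 0.1 and 2.75 CPM in CD133+Nestin+, 12.0, 10.4 and 5.60 CPM in Nestin+ and 4.61, 0.605 and 0.960 CPM in CD133+ libraries, a log2 change of 1.93 ± 0.62 (adjusted p = 0.073, and 0.0163 with the block).

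By cluster, the alpha members (6 measured) summed to 25.5 ± 13.5 CPM in CD133+Nestin+, 35.4 ± 14 CPM in Nestin+ and 22.6 ± 5.68 CPM in CD133+ libraries (SD, n = 3 each). The 12 beta members summed to 92.1, 46.2 and 51.6 CPM in CD133+Nestin+, to 137, 86.5 and 92.7 CPM in Nestin+ and to 57.3, 30.7 and 59.6 CPM in CD133+ libraries. The 22 gamma members summed to 862 ± 202, 1057 ± 307 and 640 ± 138 CPM in the same group order. Nestin+ sums lay above every CD133+ sum for the beta and gamma clusters and overlapped for the alpha cluster. All 12 beta members had a log2 change above 0, with a median of 0.88, against 0.50 for the 6 alpha and 0.46 for the 22 gamma members. Among beta members Pcdhb7 had the highest mean CPM over the 9 libraries, not adjusted for length, at 19.7, 3.92 and 10.9 CPM in CD133+Nestin+, 24.8, 17.2 and 24.6 CPM in Nestin+ and 12.0, 5.98 and 11.2 CPM in CD133+ libraries. Among alpha members Pcdha12 did, at 12.3, 0.384 and 11.1 CPM in CD133+Nestin+, 18.1, 4.22 and 3.69 CPM in Nestin+ and 11.6, 7.95 and 6.27 CPM in CD133+ libraries, and its Nestin+ and CD133+ values overlapped. In every cluster Nestin+ replicate 1 gave the largest sum of the 9 libraries.

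**Figure D4:**
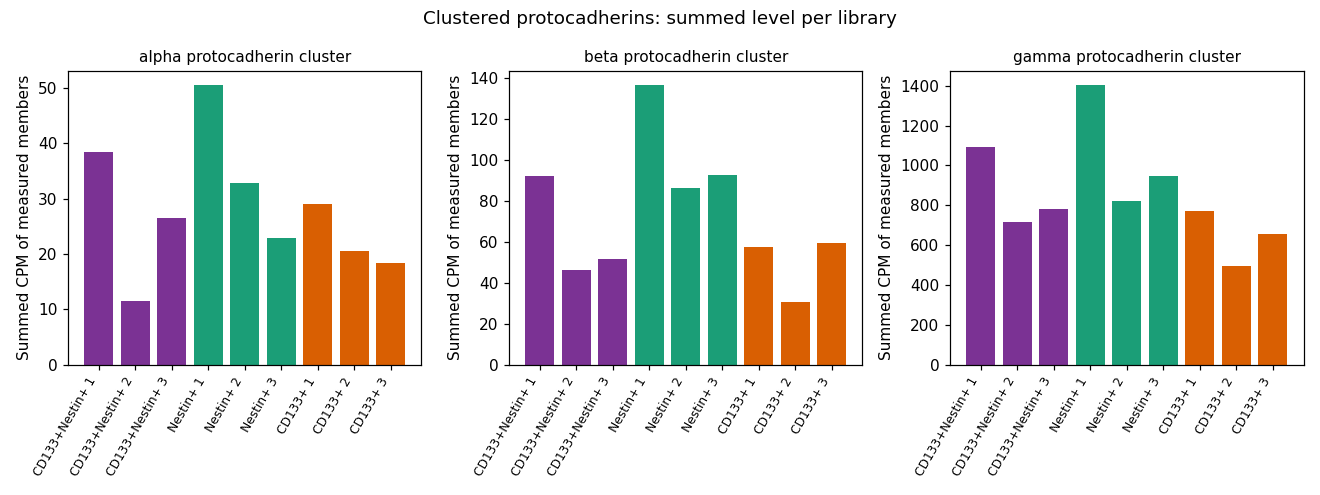
Summed CPM of the measured alpha, beta and gamma protocadherins, 1 bar per library from 0, with CD133+Nestin+ left, Nestin+ in the middle and CD133+ right. Nestin+ replicate 1 is the tallest bar in each panel (50.6, 137 and 1405 CPM), and CD133+Nestin+ replicate 2 is the shortest of all 9 in the alpha panel at 11.5 CPM.

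Within the gamma cluster Pcdhgc3 and Pcdhgc4 took more of the summed CPM than the other 20 members together. Pcdhgc4, which supports survival of interneurons in mice, stood at 329.6, 246 and 246 CPM in CD133+Nestin+, 365, 243 and 278 CPM in Nestin+ and 279, 167 and 148 CPM in CD133+ libraries. Pcdhgc3 stood at 342, 138 and 212 CPM in CD133+Nestin+, 522, 261 and 281 CPM in Nestin+ and 171, 93.3 and 194 CPM in CD133+ libraries, a log2 change in Nestin+ relative to CD133+ of 1.20 ± 0.41 (adjusted p = 0.0921, and 0.0057 with the block). Together they made up 53.7% to 61.5% of the gamma sum in CD133+Nestin+, 59.0% to 63.1% in Nestin+ and 52.2% to 58.4% in CD133+ libraries, so Nestin+ shares lay above all CD133+ shares and overlapped those of CD133+Nestin+. An exact permutation test of 3 libraries against 3 cannot give a p below 0.1, so no test is given for these shares or for the cluster sums. Levels of single alpha and gamma members depend on how shared exons were counted: 28.5% to 53.6% of the annotated exon length of the alpha members and 27.8% to 66.8% of that of the gamma members was shared with another member. Counting overlap with any annotated gene, the shares were 48.6% to 93.0% for alpha members and 31.5% to 100% for gamma members. Among beta members only Pcdhb22 overlapped any annotated gene, over 6.88% of its exon length. Of member values under 100 reads, 97.6% outside the clusters lay within 0.1 of a whole number of reads, against 38.1% in the alpha, 26.8% in the beta and 0 of 9 values in the gamma cluster, so most of the low clustered values were not whole reads. Beta levels are therefore also subject to how reads were assigned, and why their values were not whole reads was not tested.

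CD133+Nestin+ replicate 2 departed from its group in many clustered members. At least 2-fold lower values than the mean of the other 2 CD133+Nestin+ libraries, on log2(CPM + 1), were found in 16 of 40 clustered members (40%), 7 of 34 other members (20.6%) and 20.3% of all genes tested. At least 2-fold higher values were found in 6 of 40 (15%), 1 of 34 (2.94%) and 11.1% of all genes. Pcdhb20 stood at 16.1, 0.0669 and 7.66 CPM in the 3 CD133+Nestin+ libraries, and the middle value was worth 2 reads. Pcdhb19, beside it on chromosome 18, stood at 5.27, 0.0664 and 4.40 CPM, and Pcdha9 at 7.74, 0.0570 and 4.52 CPM. Pcdhb16 went the other way at 2.26, 12.9 and 0.833 CPM, as did Pcdhga2 at 20.3, 45.2 and 15.4 CPM. In the same library Pcdhgc4, the gamma member with the highest level per length, stood at 246 CPM, equal to replicate 3 of its group to 3 digits.

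Outside the clusters the same library held 3 reads of Pcdh19, against 302 and 163 in the others of its group, and 1 read of Pcdh8, against 33 and 42. Cdh10 stood at 27.0, 0.365 and 13.4 CPM and Pcdh18 at 32.3, 3.78 and 29.0 CPM in CD133+Nestin+ libraries. In CD133+Nestin+ replicate 2 listed genes summed to 65.9% of the total that CPM implies, the lowest share of the 9 libraries. The shares were 87.6% and 81.0% in CD133+Nestin+ replicates 1 and 3. Cell numbers per library are not stated in the labels. The part of this share or of cell numbers in these departures was not tested. CD133+ replicate 2 was the lowest of the 9 libraries for 29 of the 74 members, against 13.1% of all genes tested.

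**Figure D5:**
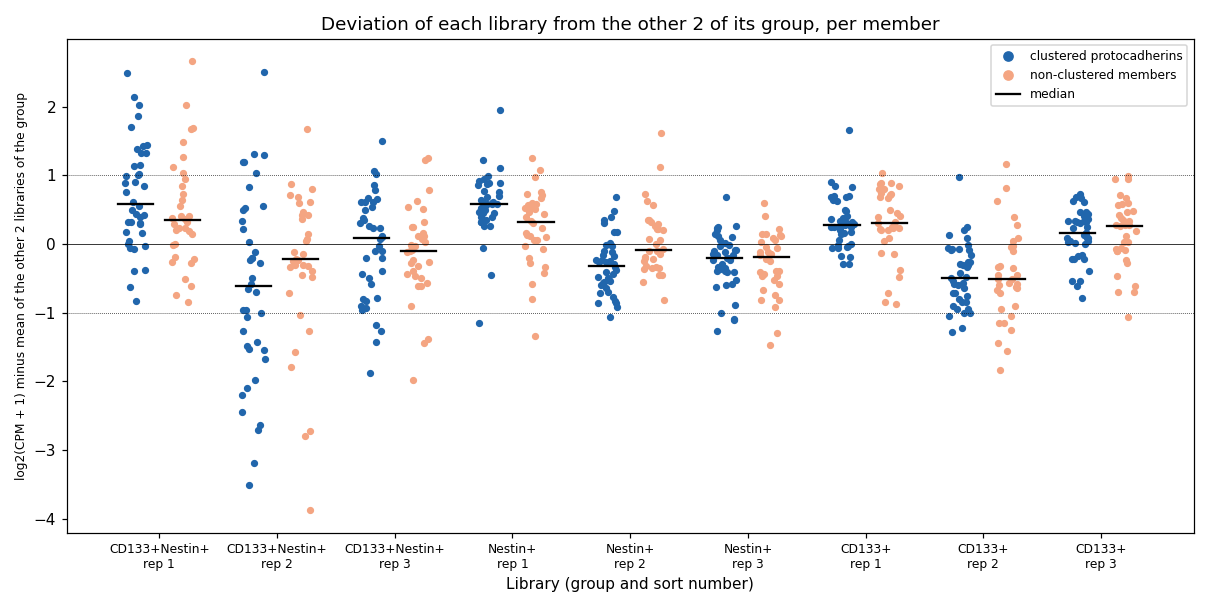
Log2(CPM + 1) of each member in a library minus its mean in the other 2 libraries of the group (y axis), for the 9 libraries (x axis), with clustered protocadherins in blue and other members in orange; black bars are medians and dotted lines mark 2-fold. The blue points of CD133+Nestin+ replicate 2 spread most, with a median absolute difference of 1.04 and 16 of 40 points below the lower dotted line. CD133+ replicate 2 has 12 of 74 points below that line. The shares of all genes tested below it were 20.3% and 3.25% in these 2 libraries.

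CD133+Nestin+ cells had no member called against CD133+ cells in limma's fit without the block: 0 rose and 0 fell, where 0.297% and 2.12% of all genes did. At an unadjusted p under 0.05, limma had 11 members higher and 2 lower, against 635 and 1395 of the 16143 genes tested. The authors' deposited table had 0 members past a false discovery rate of 0.05, against 0.955% of all genes. With the block 3 rose and 0 fell (1.12% and 3.69% of all genes), and 12 and 2 members did not overlap in the higher and lower direction (6.56% and 10.9% of all genes). With the block and without CD133+Nestin+ replicate 2, 3 rose. All 3 that rose with the block over the 9 libraries are planar polarity cadherins. Celsr1 stood at 32.5, 49.9 and 28.9 CPM in CD133+Nestin+, 23.5, 20.7 and 24.4 CPM in Nestin+ and 22.2, 14.2 and 10.6 CPM in CD133+ libraries, a log2 change of 1.21 ± 0.28 (limma with the block, adjusted p = 0.0419, and 0.0798 without it). Dchs2, a large Dachsous cadherin, stood at 5.78, 12.3 and 8.71 CPM in CD133+Nestin+, 3.02, 5.10 and 3.27 CPM in Nestin+ and 1.60, 4.26 and 2.43 CPM in CD133+ libraries, a log2 change of 1.41 ± 0.27 with an adjusted p of 0.0174, and 0.0985 without the block. Dchs1 had 0.94 ± 0.21 with the block (adjusted p = 0.0313, and 0.212 without it), and CD133+Nestin+ values of all 3 genes lay above every CD133+ value.

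The members' median log2 change in CD133+Nestin+ relative to CD133+ cells was 0.29, against -0.06 over all genes tested, and 50 of 74 were above 0. Without CD133+Nestin+ replicate 2 the median was 0.44, against 0.01 over all genes, and 63 of 74 members were above 0. Within the pairs of sort numbers 1, 2 and 3 the members' medians were 0.39, 0.43 and 0.04, against 0.01, -0.24 and 0.02 over all genes tested. The CD133+Nestin+ mean lay between the means of both other groups in 40 of the 74 members (54.1%), against 44.7% of all genes tested.

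CD133+Nestin+ cells relative to Nestin+ cells had 1 member called higher, Cdh26, and 0 lower in limma's fit without the block (2.87% and 0.254% of all genes). At an unadjusted p under 0.05 in that fit, 3 members were higher and 17 lower, against 1463 and 661 of the 16143 genes tested. Cdh26 was also the 1 member past the false discovery rate in the authors' deposited table, where 2.59% of all genes passed. With the block 1 member rose and 8 fell, against 4.97% and 1.12% of all genes, and groups did not overlap in 5 members in the higher and 19 in the lower direction (11.1% and 6.21% of all genes). The 8 that fell with the block were Pcdh7, Pcdh11x, Pcdh15, Pcdh17, Pcdhac2, Cdh10, Cdh20 and Celsr3, and the block without CD133+Nestin+ replicate 2 called 7 lower. Pcdh15 fell by a log2 of 2.41 ± 0.54 with the block (limma, adjusted p = 0.0292, and 0.056 without it), Pcdh11x by 1.98 ± 0.46 (0.0333 and 0.109) and Pcdh17 by 1.13 ± 0.25 (0.0257 and 0.109).

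The median log2 change in CD133+Nestin+ relative to Nestin+ cells was -0.49 over the members and -0.04 over all genes, with 19 of 74 above 0; without CD133+Nestin+ replicate 2 the members' median was -0.32, against 0.05 over all genes, with 16 of 74 above 0. Within the 3 pairs the members' median was -0.41, -0.62 and -0.39, against 0.03, -0.12 and 0.03 over all genes tested. In all 3 pairs 42 members were lower in CD133+Nestin+ and 8 were higher, and the matching shares of all genes were not computed. In this comparison 4 of 7 oligodendrocyte precursor markers fell beside the protocadherins, and their part was not tested. The 3 comparisons share their groups, so each is given by its own values. The number of members called lower was 5 without CD133+Nestin+ replicate 1 (145 genes in all) and 1 without Nestin+ replicate 1 (14 genes). It was 0 without any other single library (1 to 39 genes). With all libraries, 0 members and 41 genes were called lower.

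Among genes at large, 2.45% rose and 9.42% fell in Nestin+ relative to CD133+ cells, and the counts of cadherin partners are given against those shares. At an unadjusted p under 0.05 from limma, 1172 of the 16143 genes tested were higher and 2548 lower in that comparison. Of 12 catenins and cadherin adaptors, 1 fell and 0 rose in Nestin+ relative to CD133+ cells (0 higher and 4 lower at an unadjusted p under 0.05): Jup (plakoglobin, a junctional catenin that also serves desmosomes) averaged 9.88 CPM in Nestin+ and 45.8 CPM in CD133+ libraries, a log2 change of -2.09 ± 0.26 (limma, adjusted p = 0.000552). Jup was also the 1 adaptor that rose in CD133+Nestin+ relative to Nestin+ cells, at 24.0 against 9.88 CPM and a log2 change of 1.21 ± 0.26 (adjusted p = 0.0321). Ctnnb1 (beta-catenin) had a log2 change of -0.22 ± 0.27 in Nestin+ relative to CD133+ cells, with an adjusted p of 0.724. Of 16 planar polarity and Hippo partners, Fzd6 and Vangl1 fell in that comparison, by a log2 of 2.01 ± 0.30 and 1.72 ± 0.29, and 0 rose (1 higher and 4 lower at an unadjusted p under 0.05). Of 4 desmosomal cadherins and calsyntenins, Clstn3, a calsyntenin found at synapses, rose: it averaged 35.4 CPM in Nestin+ and 8.53 CPM in CD133+ libraries (log2 1.95 ± 0.46, adjusted p = 0.017).

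Of 7 measured genes of cadherin cleavage (Adam10, the gamma-secretase subunits and others), 12 regulators of clustered protocadherin promoters and 2 repressors of the epithelial state (Zeb1 and Zeb2), 0 were called by limma in any of the 3 comparisons, with or without the block. At an unadjusted p under 0.05, 1 cleavage gene was lower in CD133+Nestin+ relative to CD133+ cells (1395 of the 16143 genes tested were). By the same limit, 1 repressor was higher in Nestin+ relative to CD133+ cells (1172 genes) and lower in CD133+Nestin+ relative to Nestin+ cells (661 genes), and 0 promoter regulators differed. Ctcf, whose binding selects clustered protocadherin promoters, averaged 41.9 CPM in Nestin+ and 43.3 CPM in CD133+ libraries, a log2 change of -0.06 ± 0.23 (limma, adjusted p = 0.925). Zeb1 had a log2 change of 0.67 ± 0.29 with an adjusted p of 0.192 in that comparison.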

How the data were processed

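The data are bulk RNA-seq of 9 libraries in 3 sorted groups. The authors deposited 1 table of normalized values and 1 table of comparisons. Per the submitters' processing notes, bcl2fastq, STAR 2.5.3a, Partek 8.0, limma and the build mm10 were used. The counting method and strand setting are not given in the sources used here. The deposited values were taken as CPM because their smallest steps are those of single reads, and listed genes sum to 65.9% to 87.6% of the total that CPM implies. Of all deposited values under 100 reads, 60.5% lay within 0.1 of a whole read, which falls short of nearly all, so a table of whole reads was not rebuilt and count models were left aside. In the table, 24 symbols had been altered into dates. The authors' deposited comparison table holds p-values, step-up false discovery rates and ratios of group means, and is quoted where named.

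From the deposited CPM, log2(CPM + 1) was computed for the 16143 of 18329 genes that reached 1 CPM in 3 or more libraries. The 3 group means were fitted together with limma 3.58.1 in R 4.3.3 (trended and robust variance, 6 residual degrees of freedom). Benjamini-Hochberg adjustment ran over all genes tested, at 0.05. The fit was tested on simulated data first. Same-numbered libraries deviated together from their group means (r = 0.204 to 0.73 in 9 pairs, against -0.527 to 0.314 in 18 pairs of different numbers), and the labels give the number both in the sort name and as the passage, so sort and passage cannot be told apart. Blocking on the number left 4 residual degrees of freedom. Python 3.11.15, pandas 2.3.3 and matplotlib 3.10.9 did the rest. Positions and exon lengths are from GENCODE M21 on GRCm38 (mm10), and promoter windows from RefSeq on GRCm38.p6.

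Members called in at least 1 comparison are given per library, with Cdh2 and the member of highest mean CPM in each role group without a call. Clustered protocadherins are given by cluster. The members and the lists were chosen with earlier results of these data known. Other normalizations, filters, a pseudocount of 0.1, 2 groups fitted alone, the block and leaving out each library were tried.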

Additional observations from a re-analysis of the deposited data

How the results depend on the processing

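No member called in a comparison changed sign under any alternative tried, but the counts of calls moved. With the replicate block, which uses the pairing by sort number, 26 members rose in Nestin+ relative to CD133+, 3 rose in CD133+Nestin+ relative to CD133+ and 8 fell in CD133+Nestin+ relative to Nestin+ cells, against 11, 0 and 0 without it; over all genes these counts were 978, 181 and 180 with the block and 395, 48 and 41 without it. Members higher in Nestin+ than in CD133+ numbered 20 under quantile normalization (696 genes in all) and 20 with the 2 groups fitted alone (637 genes), and members lower numbered 1 under median centring (1300 genes), quantile normalization (1370 genes) and a filter of 5 CPM (1349 genes), which tested 57 members, against 2 members and 1520 genes. That filter called 1 member and 40 genes lower in CD133+Nestin+ relative to Nestin+ cells. Leaving out 1 library at a time gave 5 to 23 members higher (152 to 729 genes) and 1 to 2 lower (930 to 2034 genes) in Nestin+ relative to CD133+, and 0 to 5 lower (1 to 145 genes) in CD133+Nestin+ relative to Nestin+ cells. A pair of alternatives was chosen after seeing the data. The block without CD133+Nestin+ replicate 2 gave 39 higher in Nestin+ relative to CD133+ (1848 genes in all), 3 higher in CD133+Nestin+ relative to CD133+ (203 genes), and 2 higher and 7 lower in CD133+Nestin+ relative to Nestin+ cells (1101 and 223 genes). Libraries numbered 2 and 3 alone gave 1 lower in Nestin+ relative to CD133+ (1261 genes) and 2 lower in CD133+Nestin+ relative to Nestin+ cells (67 genes). Celsr3 also missed the threshold with a pseudocount of 0.1 (adjusted p = 0.0566), Cdh2 with no filter (0.0527), and Cdh23 under median centring (0.0913) and quantile normalization (0.149). The cause of these moves was not tested. Depth limits the 21 of 74 members that held under 20 reads in some library, among them the called members Pcdh15, Pcdh20, Cdh22, Cdh23 and Celsr3.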
